A study of Mus musculus with 6 samples.

Results

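Transcript levels of 7 genes for cell surface receptors were followed in 6 mouse RNA sequencing libraries. The set of Fc receptor chains, Cd200r1 and Mrgprb2 was chosen by symbol from the 24672 genes of the deposited table, where all 7 were found. The members are the 3 chains of the high-affinity IgE receptor (Fcer1a, Ms4a2 and Fcer1g), 2 receptors for IgG (Fcgr2b and Fcgr3), the inhibitory receptor Cd200r1, and Mrgprb2. They were chosen with their values in these libraries known, so their levels and differences are given as a description and without a test. The 3 libraries labelled Dif-FGSC came from cells labelled female germ stem cells (FGSC), taken off their STO feeders and moved to mitotically inactivated granulosa cells, in medium with retinoic acid at 0.1 µmol/L and with bFGF and BMP4 at 10 ng/mL each. The 3 libraries labelled FGSC came from the cells kept on inactivated STO fibroblasts with 10 ng/mL LIF, 20 ng/mL EGF, 10 ng/mL bFGF and 10 ng/mL GDNF. Cells of both groups were of strain C57BL/6 and past passage 20. Feeder layer, growth factors and retinoic acid thus changed at once and cannot be told apart, and RNA of remaining feeder cells would be part of a library. Whether the replicates of a group were cultured apart is not given, and p-values here rest on the spread among 3 libraries that may be technical replicates.

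Fc receptors bind the constant part of antibodies. The IgE receptor of mast cells and basophils is built from an alpha chain that binds IgE (Fcer1a), a beta chain that strengthens the signal (Ms4a2) and a gamma chain that carries the activating tyrosine motif (Fcer1g). The gamma chain is shared with activating IgG receptors, among them the product of Fcgr3, and both bring the kinase Syk to the membrane. Fcgr2b is the inhibitory IgG receptor and recruits the lipid phosphatase SHIP-1 when it is bound together with an activating receptor. Cd200r1 binds CD200 on other cells and restrains myeloid and mast cells through the adaptor Dok2. Mrgprb2 is a G protein-coupled receptor by which connective tissue mast cells respond to basic peptides and drugs without IgE.

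Promoter sequences are shown for 5 members to set the chains of one receptor side by side, since the alpha and beta chains were near 0 in these libraries and the gamma chain was not, and to show the 2 IgG receptor genes that were both lower in Dif-FGSC. They run from 250 bases before to 50 after the annotated start, 5′ to 3′ on the gene's strand, and come from RefSeq on build GRCm38.p6. Of the 7 members 6 matched that table, and Cd200r1 did not. Capitals mark GATAA, a word searched for GATA factors, and GAGGAA, a word searched for PU.1, on either strand (TTATC and TTCCTC on the other one). Shorter forms of these words, such as GATA, are not marked. No marked site overlaps another.
Fcer1a (chr1:173227180-173227479, strand -): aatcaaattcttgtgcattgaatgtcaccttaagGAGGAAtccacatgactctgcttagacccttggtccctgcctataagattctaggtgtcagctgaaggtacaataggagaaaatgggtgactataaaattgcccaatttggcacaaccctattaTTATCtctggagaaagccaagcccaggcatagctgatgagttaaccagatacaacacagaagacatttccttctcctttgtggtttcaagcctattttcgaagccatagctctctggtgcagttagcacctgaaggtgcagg
Ms4a2 (chr19:11623670-11623969, strand -): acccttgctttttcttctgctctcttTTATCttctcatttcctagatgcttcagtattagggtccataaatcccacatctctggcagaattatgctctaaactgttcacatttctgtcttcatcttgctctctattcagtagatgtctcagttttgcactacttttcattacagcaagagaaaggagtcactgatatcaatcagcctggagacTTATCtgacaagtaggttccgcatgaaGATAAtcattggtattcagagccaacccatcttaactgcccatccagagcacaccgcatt
Fcer1g (chr1:171234300-171234599, strand -): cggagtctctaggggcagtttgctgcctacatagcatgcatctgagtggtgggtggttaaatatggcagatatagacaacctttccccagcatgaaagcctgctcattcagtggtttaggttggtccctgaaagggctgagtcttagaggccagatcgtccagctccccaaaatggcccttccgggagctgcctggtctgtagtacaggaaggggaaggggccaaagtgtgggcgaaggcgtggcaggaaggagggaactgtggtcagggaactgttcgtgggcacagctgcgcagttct
Fcgr2b (chr1:170976022-170976321, strand -): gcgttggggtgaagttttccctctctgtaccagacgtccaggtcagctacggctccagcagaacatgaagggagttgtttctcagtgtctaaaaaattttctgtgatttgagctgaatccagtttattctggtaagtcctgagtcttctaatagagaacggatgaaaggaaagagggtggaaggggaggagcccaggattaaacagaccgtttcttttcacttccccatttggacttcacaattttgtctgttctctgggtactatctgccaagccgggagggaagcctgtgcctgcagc
Fcgr3 (chr1:171059354-171059653, strand -): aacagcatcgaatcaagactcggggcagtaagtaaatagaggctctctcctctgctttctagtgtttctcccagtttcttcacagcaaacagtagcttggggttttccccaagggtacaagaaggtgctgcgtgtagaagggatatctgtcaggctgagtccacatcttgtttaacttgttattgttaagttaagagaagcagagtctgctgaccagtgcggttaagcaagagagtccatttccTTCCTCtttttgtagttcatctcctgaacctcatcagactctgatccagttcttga

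Counted from the annotated start, the Fcer1a window held TTATC at -92 and GAGGAA at -216. The Ms4a2 window held TTATC at -224 and -37 and GATAA at -10. The Fcer1g and Fcgr2b windows held neither of these words, and the Fcgr3 window held TTCCTC at -6. The shorter GATA, on either strand, lay at -182 in Fcer1g, at 13 in Fcgr2b and at -109 and -107 in Fcgr3. Among the members with a window, GATAA was found in 3 (Fcer1a, Ms4a2 and Mrgprb2) and each of these was at or near 0 in every library. GATA was found in all 6 windows, so this split depends on the word chosen. A link between these words and the levels was not tested. Of 27025 promoters of the same length, 25.8% held GATAA, 58.3% held GATA and 28.3% held GAGGAA on either strand. A match is a run of letters, not a shown binding site.

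Values are FPKM, fragments scaled to transcript length and to the mapped fragments of the library, as the authors deposited them. The low values implied 19.4 to 22.3 M fragments in Dif-FGSC libraries and 17.3 to 26.9 M in FGSC libraries, and 12670 to 12830 genes were above 0 in Dif-FGSC and 12388 to 12575 in FGSC. Log2 differences are Dif-FGSC minus FGSC of log2(FPKM + 1), so changes of genes at low levels come out too small, with the standard error (SE) of limma's moderated fit. A gene with a mean of at least 1 FPKM was tested, and called where its p, adjusted by Benjamini-Hochberg over all tested genes, was under 0.05. Of 9162 tested genes 65.1% were called (36.5% higher and 28.6% lower in Dif-FGSC), and 70.7% had groups that did not overlap (39.6% higher and 31% lower). All 4 members that passed the filter, namely Fcer1g, Fcgr2b, Fcgr3 and Cd200r1, were among the called genes and had groups that did not overlap. Because the members were chosen with these values known, nothing is read from that count. The other 3, Fcer1a, Ms4a2 and Mrgprb2, lay under the filter and have no place in that count.

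Of the IgE receptor, the gamma chain was abundant and the alpha and beta chains were at or near 0. Fcer1g was listed at 75.6, 76.2 and 72.4 FPKM in Dif-FGSC and at 62.0, 57.7 and 67.0 FPKM in FGSC. Each Dif-FGSC library was above each FGSC library, and the log2 difference was 0.26 ± 0.054 (SE). The group means were 74.7 ± 2.04 FPKM in Dif-FGSC and 62.2 ± 4.66 FPKM in FGSC (SD, n = 3 each). In bulk RNA a difference in the share of cells that carry a transcript and a difference in RNA per cell cannot be told apart.

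Fcer1a, the chain that holds IgE, was listed at 0.0431, 0 and 0 FPKM in Dif-FGSC and at 0 in all 3 FGSC libraries. The value in Dif-FGSC replicate 1 corresponds to an estimated 0.96 fragments. A floor of 3 fragments, which covers counting error only, allows 0.112 to 0.174 FPKM for this gene, depending on the library, so the groups could not be told apart at this depth. Ms4a2, the beta chain, was listed at 0.0733, 0.0433 and 0.0622 FPKM in Dif-FGSC and at 0.174, 0.141 and 0.0832 FPKM in FGSC. The Dif-FGSC libraries were all below the FGSC libraries, and no value exceeded 0.174 FPKM. If the deposited value is a mean over the gene's 4 curated RefSeq transcripts, it stands for an estimated 8.1 to 16 fragments in Dif-FGSC and 14 to 45 in FGSC. The closest libraries of the groups, Dif-FGSC replicate 1 and FGSC replicate 3, then stand for an estimated 16 and 14 fragments. Their order lies within counting error, so no clear separation of the groups is read from Ms4a2. An exact 0 in this table can also be a failed estimate, since Rps27 and Rpl30, ribosomal protein genes that every cell uses, are listed at 0 in 6 libraries and in 2 libraries of the table.

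**Figure D1:**
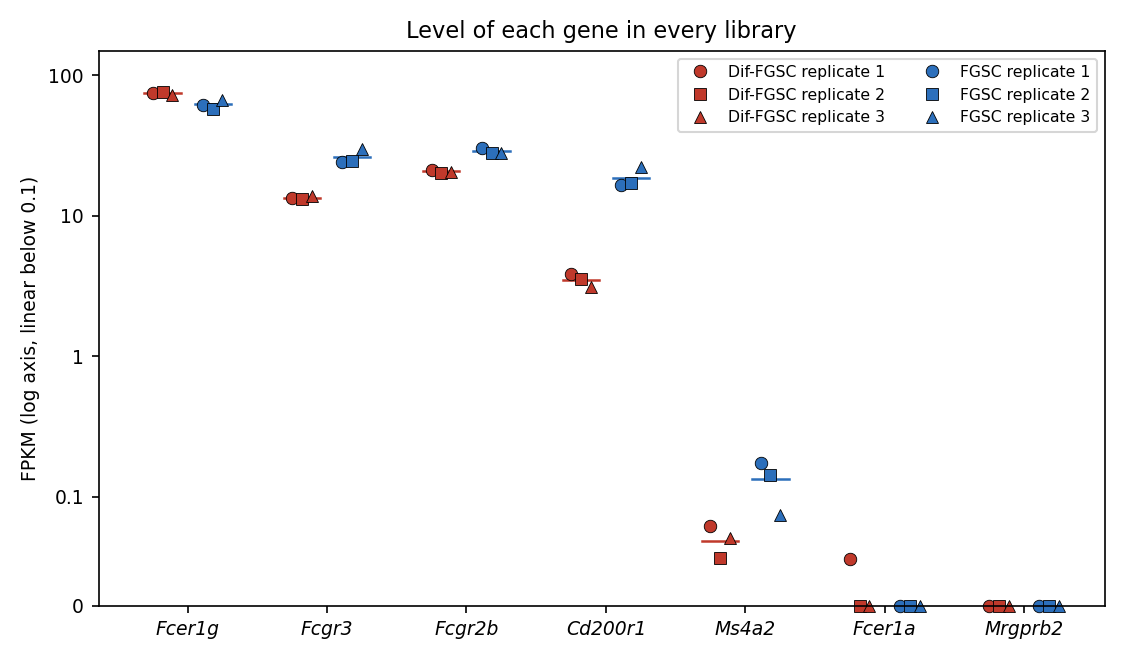
FPKM of each of the 7 genes (y axis, logarithmic above 0.1 and linear below) in the 3 Dif-FGSC libraries (red) and the 3 FGSC libraries (blue), with marker shapes for replicates 1 to 3 and a line at the group mean for the genes above 0 in every library. Fcer1g, Fcgr3, Fcgr2b and Cd200r1 stood between 3.09 and 76.2 FPKM in every library, while Ms4a2 did not exceed 0.174 FPKM, Fcer1a was above 0 in 1 library and Mrgprb2 was at 0 in all 6.

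Both IgG receptors were expressed and were lower in Dif-FGSC. Fcgr3, the low-affinity activating receptor, was listed at 13.4, 13.2 and 13.9 FPKM in Dif-FGSC and at 24.1, 24.8 and 30.0 FPKM in FGSC. Every Dif-FGSC library was below every FGSC library, and FGSC replicate 3 stood above the other 2 of its group. The log2 difference was -0.91 ± 0.078 (SE), and -0.81 without FGSC replicate 3. Fcgr2b, the inhibitory receptor, was listed at 21.3, 20.2 and 20.5 FPKM in Dif-FGSC and at 30.4, 28.0 and 28.1 FPKM in FGSC. Its groups did not overlap either, and its log2 difference of -0.46 ± 0.042 (SE) was smaller in size than that of Fcgr3. The 2 genes share sequence: 10.2% of the 50-base words of the Fcgr3 transcripts also occur in Fcgr2b transcripts, and 4.48% of those of Fcgr2b occur in Fcgr3. Reads that lie wholly in such a stretch cannot be assigned to one of them, and their values are uncertain to that extent.

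Because the activating and the inhibitory receptor compete for the same IgG, their ratio was taken within each library. Fcgr3 over Fcgr2b was 0.627, 0.651 and 0.679 in Dif-FGSC and 0.793, 0.883 and 1.07 in FGSC. The groups did not overlap, with means of 0.652 ± 0.0265 in Dif-FGSC and 0.916 ± 0.141 in FGSC (SD, n = 3 each). The FGSC libraries were spread more widely, and FGSC replicate 3 was the only library in which Fcgr3 exceeded Fcgr2b. Fcer1g, the gamma chain that Fcgr3 needs to reach the surface, stood at 5.20 to 5.79 times Fcgr3 in Dif-FGSC and at 2.23 to 2.57 times Fcgr3 in FGSC. With each value multiplied by the gene's number of RefSeq transcripts, for a reason given with the order of levels, these ratios were 2.60 to 2.89 in Dif-FGSC and 1.11 to 1.28 in FGSC. By their own log2 differences, Fcer1g was higher (0.26) and Fcgr3 lower (-0.91) in Dif-FGSC, which the ratio alone does not show.

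Among the members Cd200r1 had the largest difference on the log2 scale. It was listed at 3.84, 3.56 and 3.09 FPKM in Dif-FGSC and at 16.6, 17.0 and 22.3 FPKM in FGSC. The lowest FGSC library was well above the highest Dif-FGSC library, and FGSC replicate 3 was again the highest. The mean in FGSC was 5.33 times that in Dif-FGSC, and the log2 difference was -2.12 ± 0.11 (SE), or -1.99 without FGSC replicate 3. Of the 9162 tested genes it had the log2 difference ranked 17 from the most negative, while Fcgr3 ranked 92, Fcgr2b 494 and Fcer1g 2161 from the most positive. Cd200r4, the neighbouring activating gene of the same family, stood at 12.7 ± 0.563 FPKM in Dif-FGSC and 13.1 ± 0.533 FPKM in FGSC (SD, n = 3 each) and was not called (limma adjusted p = 0.416). After quantile normalization it was called lower (limma adjusted p = 0.0407, within 0.0407 to 0.857 over 14 alternatives). Cd200r1 over Cd200r4 was accordingly 0.256 to 0.291 in Dif-FGSC and 1.28 to 1.62 in FGSC. Their transcripts share 2.17% of the 50-base words of Cd200r1.

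**Figure D2:**
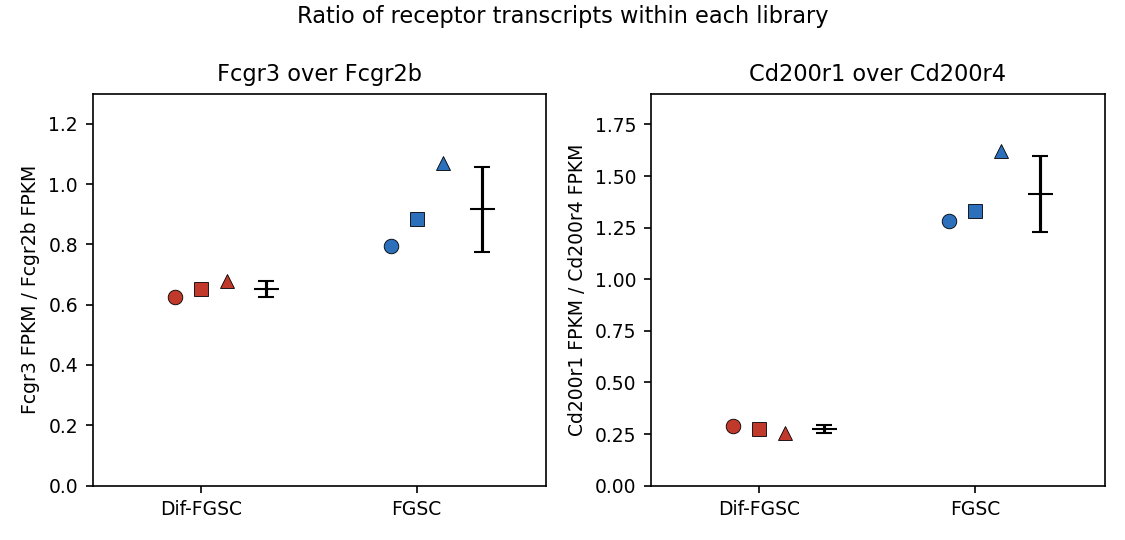
Ratio of FPKM values within each library (y axis, no unit, from 0) for Fcgr3 over Fcgr2b (left) and Cd200r1 over Cd200r4 (right), in Dif-FGSC (red) and FGSC (blue), with marker shapes for replicates 1 to 3 and black bars for the mean and SD of 3 libraries. All Dif-FGSC libraries lie below all FGSC libraries in both panels, at 0.652 ± 0.0265 against 0.916 ± 0.141 on the left.

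Mrgprb2 was listed at 0 in all 6 libraries. For its transcript the floor of 3 fragments allows 0.0537 to 0.0835 FPKM. Of 20 other genes of the Mrgpr family in the table, 15 were likewise at 0 in every library. The tested member was Mrgpre, at 4.30 ± 0.14 FPKM in Dif-FGSC and 3.82 ± 0.271 FPKM in FGSC (SD, n = 3 each). It was called by a narrow margin, and that call was lost under 10 of 14 alternatives, among them the leaving out of any 1 library other than FGSC replicate 2 (limma adjusted p = 0.0169 to 0.483 over them).

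Since FPKM is scaled by transcript length, the members can be ordered by level. In Dif-FGSC the order was Fcer1g, Fcgr2b, Fcgr3, Cd200r1 and Ms4a2, and no neighbours in it overlapped, with Fcer1a and Mrgprb2 at or near 0 after them. In FGSC the order was the same, but Fcgr2b (28.8 ± 1.37 FPKM) and Fcgr3 (26.3 ± 3.24 FPKM; SD, n = 3 each) overlapped. The digits of the deposited values bear on this order. A value with more than 6 significant digits was found for 0.299% of the 4689 tested genes with 1 curated RefSeq transcript, for 74.1% of the 2039 with 2 transcripts and for 86.9% of the 2282 with 3 or more. This is the trace that averaging 6-digit transcript values would leave, although the sources used here do not state such a step. Fcgr2b and Fcgr3 have 2 curated transcripts each, Ms4a2 has 4, and the other members have 1. Multiplied by these numbers, Fcgr2b stood at 41.4 FPKM in Dif-FGSC and 57.7 FPKM in FGSC, and Fcgr3 at 27.0 FPKM in Dif-FGSC and 52.6 FPKM in FGSC. The order of the means then held, while in FGSC the libraries of Fcer1g and Fcgr2b overlapped as well.

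The other Fc receptor genes were mostly at or near 0. Among 14 genes of the list, 9 did not reach 0.1 FPKM in any library, and 4 of these were at 0 throughout. Fcgr1, the high-affinity IgG receptor that also uses the gamma chain, was the tested one, with 4.36, 4.07 and 4.14 FPKM in Dif-FGSC and 5.44, 5.77 and 4.37 FPKM in FGSC. It was lower in Dif-FGSC (log2 difference -0.25 ± 0.0844 SE, limma adjusted p = 0.0331), but FGSC replicate 3 nearly met the Dif-FGSC libraries and the call was lost under 6 of 14 alternatives, namely without a filter and without any 1 library other than FGSC replicate 3 (limma adjusted p = 0.00093 to 0.1 over all 14). Fcgr4, another activating IgG receptor, was below the filter at 0.708, 0.285 and 0.564 FPKM in Dif-FGSC and 0.293, 0.292 and 0.046 FPKM in FGSC. Its groups overlapped. Trim21, which binds antibody inside the cell, was also below the filter, at 0.538 ± 0.0646 FPKM in Dif-FGSC and 0.695 ± 0.118 FPKM in FGSC (SD, n = 3 each).

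Most genes of the signalling chain below the IgE receptor were expressed in both groups, and more of them were higher than lower in Dif-FGSC. Of 29 listed genes 27 were tested, of which 15 rose, 4 fell and 8 were not called, beside 36.5% and 28.6% of all tested genes that rose and fell. The median log2 difference of the list was 0.22, and that of all tested genes was 0.03. The largest rise was that of Cbl, a ubiquitin ligase that limits the receptor's signal, to 12.7 ± 0.325 FPKM in Dif-FGSC against 5.88 ± 0.457 FPKM in FGSC (limma adjusted p = 4.94e-06). Cblb, its close relative, rose to 5.78 ± 0.0615 FPKM in Dif-FGSC against 3.55 ± 0.267 FPKM in FGSC (adjusted p = 5.26e-05, limma). Inpp5d encodes SHIP-1, the phosphatase that Fcgr2b recruits, and rose to 17.6 ± 0.146 FPKM in Dif-FGSC against 11.2 ± 0.331 FPKM in FGSC (limma adjusted p = 5.67e-06). The SD is over 3 libraries throughout.

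The kinases nearest to the receptor rose by small amounts. Lyn, which phosphorylates the receptor chains, had a log2 difference of 0.29 ± 0.0445 (SE), and Syk, which binds the phosphorylated gamma chain, one of 0.17 ± 0.042, whose call was lost after quantile normalization (limma adjusted p = 0.111, within 0.00741 to 0.111 over 14 alternatives). The genes that fell were Lat, Rasgrp4, Pik3cd and Ptpn6. Lat, the membrane adaptor that Syk phosphorylates, fell to 121 ± 3.6 FPKM in Dif-FGSC against 164 ± 5.49 FPKM in FGSC (limma adjusted p = 2.85e-05). The others were Rasgrp4, a Ras activator of mast cells (log2 difference -0.34 ± 0.047 SE), Pik3cd, a phosphoinositide kinase (-0.23 ± 0.031), and Ptpn6, the phosphatase SHP-1 (-0.22 ± 0.037). Lcp2, the adaptor SLP-76, was the most abundant gene of the list, at 176 ± 1.3 FPKM in Dif-FGSC and 177 ± 10.5 FPKM in FGSC, and was not called.

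**Figure D3:**
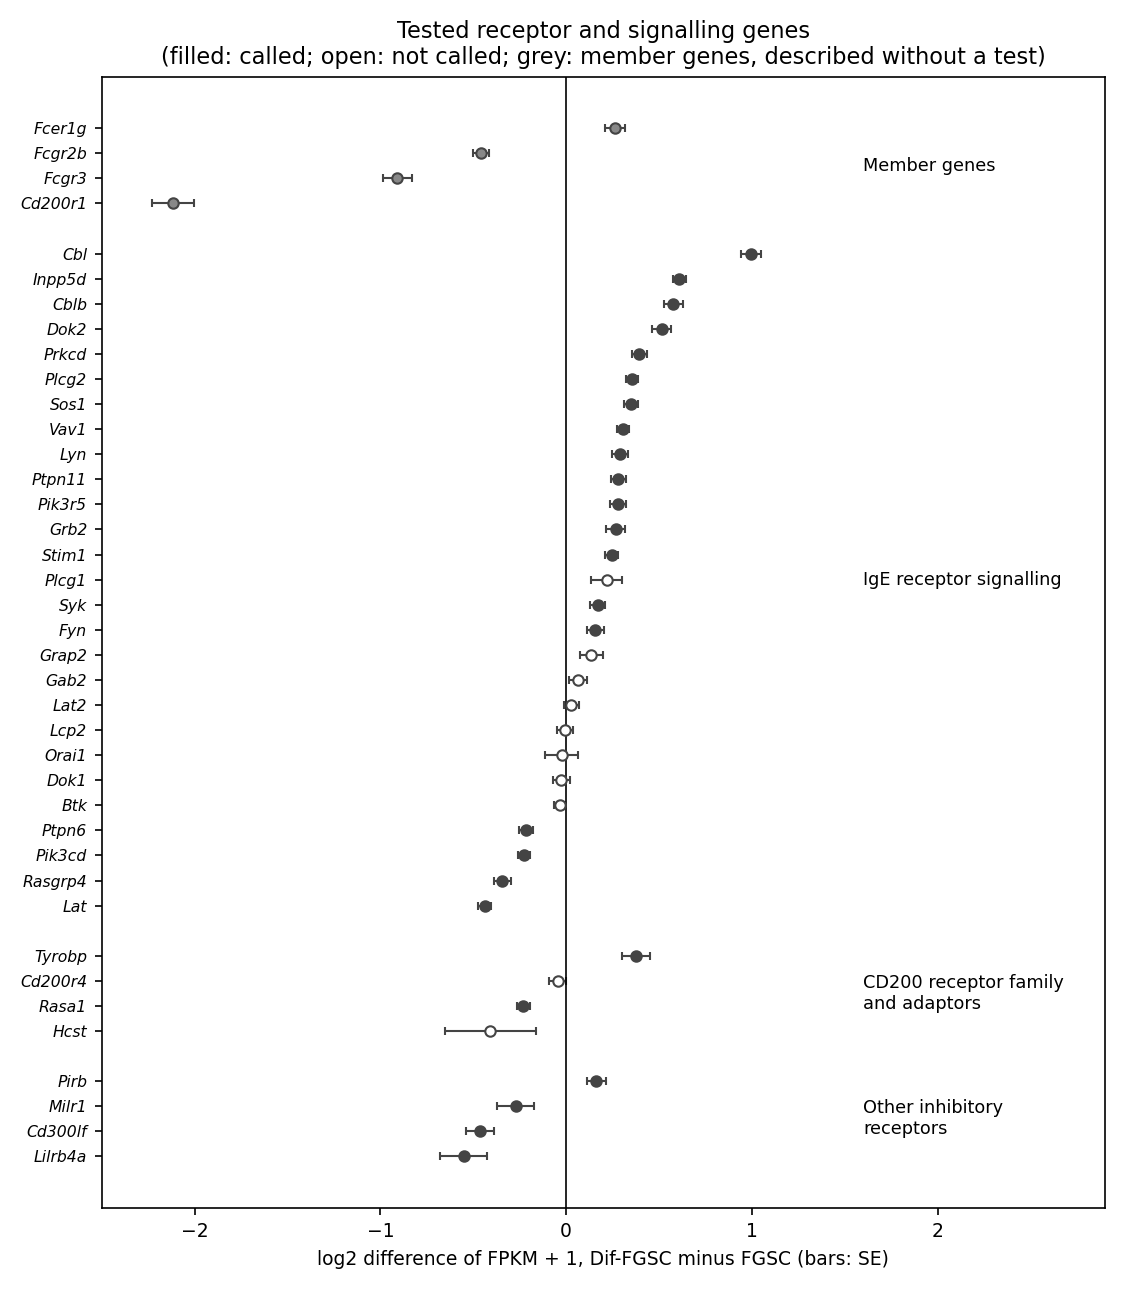
Log2 difference of FPKM + 1, Dif-FGSC minus FGSC (x axis, bars are SE), for the 4 member genes above the filter (grey) and for the tested genes of 3 lists, filled where the gene was called and open where it was not; genes held by more than 1 list are drawn once. Cd200r1 lies farthest to the left at -2.12, and most IgE receptor signalling genes lie to the right of 0.

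Around Cd200r1, the adaptors and relatives differed in direction. Dok2, the adaptor through which CD200R1 signals, rose to 27.7 ± 2.02 FPKM in Dif-FGSC against 19.0 ± 0.14 FPKM in FGSC (limma adjusted p = 8.37e-05). Its relative Dok1 was not called, at 4.77 ± 0.111 FPKM in Dif-FGSC and 4.87 ± 0.233 FPKM in FGSC. Rasa1, the Ras inhibitor that Dok2 binds, fell to 15.3 ± 0.16 FPKM in Dif-FGSC against 18.1 ± 0.622 FPKM in FGSC (limma adjusted p = 0.000868). Tyrobp, the adaptor DAP12 of the activating CD200 receptors, rose to 15.9, 18.1 and 19.0 FPKM in Dif-FGSC against 13.4, 12.3 and 14.4 FPKM in FGSC (limma adjusted p = 0.00287). With Cd200r4 and the adaptor Hcst, which were not called either, 6 of 9 listed genes were tested, of which 2 rose, 1 fell and 3 were not called, beside 65.1% called of all tested genes. Hcst was called lower without Dif-FGSC replicate 3 (limma adjusted p = 0.0279, within 0.0279 to 0.536 over 14 alternatives), and Dok1 after quantile normalization. Cd200r3, an activating family member of basophils and mast cells, was just under the filter, at 1.06, 1.15 and 1.07 FPKM in Dif-FGSC and 0.75, 0.778 and 0.802 FPKM in FGSC. Its groups did not overlap, and it was not tested. Cd200r3 has 4 curated RefSeq transcripts, so its deposited value may be a mean over them. It would then stand for an estimated 320 to 370 fragments in Dif-FGSC and 220 to 310 in FGSC. The ligand gene Cd200 was listed at 0 in every library.

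Of 15 listed genes for other inhibitory receptors known from mast cells 4 reached the filter, of which 1 rose and 3 fell, beside 36.5% and 28.6% of all tested genes. Their median log2 difference was -0.37, against 0.03 over all tested genes. Lilrb4a, an inhibitory receptor of myeloid and mast cells, was listed at 9.90, 9.41 and 10.3 FPKM in Dif-FGSC and at 13.3, 13.2 and 19.0 FPKM in FGSC (limma adjusted p = 0.00582). FGSC replicate 3 stood above the rest of its group, as it did for Cd200r1 and Fcgr3. Cd300lf fell to 1.22 ± 0.102 FPKM in Dif-FGSC against 2.06 ± 0.27 FPKM in FGSC (limma adjusted p = 0.00111), and Pirb rose to 2.55 ± 0.112 FPKM in Dif-FGSC against 2.17 ± 0.103 FPKM in FGSC (limma adjusted p = 0.023). The call of Pirb was lost under 4 of 14 alternatives (adjusted p = 0.0108 to 0.161 over them), among them the leaving out of Dif-FGSC replicate 3 or FGSC replicate 2. Milr1, which encodes Allergin-1, was the other one that fell (limma adjusted p = 0.0458), and its groups overlapped. Its call was lost under 5 of 14 alternatives (limma adjusted p = 0.00631 to 0.139 over all 14), namely without a filter and without Dif-FGSC replicate 1, Dif-FGSC replicate 2, FGSC replicate 2 or FGSC replicate 3.

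Most of the listed transcription factors of Fc receptor genes were expressed in both groups, while Fcer1a and Ms4a2 were at or near 0. Gata2, which drives mast cell genes, stood at 248 ± 6.98 FPKM in Dif-FGSC and 185 ± 1.57 FPKM in FGSC. Spi1, which encodes PU.1, stood at 59.3 ± 1.97 FPKM in Dif-FGSC and 56.2 ± 2.23 FPKM in FGSC and was not called. Gata1, an activator of the alpha and beta chain genes, rose to 3.71 ± 0.0482 FPKM in Dif-FGSC against 1.77 ± 0.166 FPKM in FGSC (limma adjusted p = 1.81e-05). Zfpm1 encodes FOG-1, a cofactor that binds GATA factors, and rose to 45.3 ± 2.38 FPKM in Dif-FGSC against 21.7 ± 1.00 FPKM in FGSC (limma adjusted p = 2.89e-06). Of 12 tested factors 6 rose, 1 fell and 5 were not called, and the 7 called ones stand beside 65.1% called of all tested genes. The one that fell was Lmo2, a partner of Tal1 and GATA factors (log2 difference -0.50 ± 0.061 SE). Tal1 rose with a log2 difference of 0.46 ± 0.036.

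The labels call these cells female germ stem cells, and markers of the cell types that carry the members were checked. Among 14 germ cell markers 11 did not reach 0.1 FPKM in any library, and 7 were listed at 0 throughout, among them Dazl, which goes against the labelled cell type within the limits of a listed 0. The highest, Zbtb16, stood at 0.433, 0.478 and 0.749 FPKM in Dif-FGSC and was listed at 0 in all FGSC libraries. Stra8, which retinoic acid induces in germ cells, averaged 0.0861 FPKM in Dif-FGSC and 0.0083 FPKM in FGSC. These values of Stra8 stand for an estimated 4.8, 2.5 and 2.4 fragments in Dif-FGSC and 1.2, 0 and 0 in FGSC. They lie near or under the floor of 3 fragments, and no difference is read from them. Of 14 mast cell markers 9 were tested, of which 7 rose, none fell and 2 were not called, beside 36.5% higher and 28.6% lower of all tested genes. Kit, the receptor for stem cell factor, stood at 114 ± 0.931 FPKM in Dif-FGSC and 89.0 ± 5.20 FPKM in FGSC. Il1rl1, the receptor for IL-33, rose to 16.4 ± 0.188 FPKM in Dif-FGSC against 9.74 ± 0.763 FPKM in FGSC, and Srgn, the granule proteoglycan serglycin, to 74.1 ± 2.75 FPKM in Dif-FGSC against 51.4 ± 2.84 FPKM in FGSC (limma adjusted p = 2.43e-05 and 5.41e-05). Cpa3, the mast cell carboxypeptidase, was highest, at 301 ± 10.5 FPKM in Dif-FGSC and 288 ± 19.0 FPKM in FGSC, and was not called. Mcpt2, a protease of mucosal mast cells, rose to a mean of 4.57 FPKM in Dif-FGSC against 0.371 FPKM in FGSC (limma adjusted p = 5.45e-05). The other 2 listed mucosal proteases stayed below 0.1 FPKM in every library. Cma1, a protease of connective tissue mast cells, was below the filter. It averaged 1.24 FPKM in Dif-FGSC and 0.0288 FPKM in FGSC, and its groups did not overlap. Other mast cell genes were at or near 0: Tpsb2, a tryptase, was at 0 in every library, and Hdc, which makes histamine, did not exceed 0.149 FPKM in Dif-FGSC or 0.114 FPKM in FGSC. Together with Fcer1a and Mrgprb2 at or near 0, the data bear out only part of the mast cell pattern, so the members are named here as receptor genes and not by a cell type.

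Fcgr2b, Fcgr3, Fcer1g and Cd200r1 are also genes of macrophages, and the summed level of 13 macrophage markers was 11.5 to 11.7 FPKM in Dif-FGSC and 24.4 to 25.0 FPKM in FGSC. Most of the FGSC sum was Adgre1, a surface marker of mouse macrophages, at 4.28 ± 0.173 FPKM in Dif-FGSC and 20.3 ± 0.324 FPKM in FGSC. Without Adgre1 the other 12 markers summed to 7.22 to 7.44 FPKM in Dif-FGSC and 4.44 to 4.46 FPKM in FGSC, so the direction of the sum rests on that gene. Cd68, a lysosomal protein of macrophages, was higher in Dif-FGSC, at 6.19 ± 0.118 FPKM in Dif-FGSC and 3.19 ± 0.271 FPKM in FGSC. Of the 13 markers 8 stayed below 0.1 FPKM in every library, among them Csf1r, the receptor that defines the lineage, with at most 0.0913 FPKM in Dif-FGSC and 0.0378 FPKM in FGSC. Of 8 basophil markers 4 were tested, of which 1 rose, 1 fell and 2 were not called, beside 36.5% and 28.6% of all tested genes. Mcpt8 rose to 8.21 ± 0.925 FPKM in Dif-FGSC against 0.596 ± 0.147 FPKM in FGSC, and Il4 fell to 4.17 ± 0.257 FPKM in Dif-FGSC against 7.16 ± 0.287 FPKM in FGSC. Il6 was not called, at 7.44 ± 0.218 FPKM in Dif-FGSC and 7.66 ± 0.497 FPKM in FGSC, and Prss34 was at 0 throughout. The summed level of the 8 basophil markers was 22.7 to 24.0 FPKM in Dif-FGSC and 17.9 to 19.1 FPKM in FGSC. The direction of this sum rests on Mcpt8, as that of the macrophage markers rests on Adgre1. None of the markers of B cells, T and NK cells, neutrophils, eosinophils, STO fibroblasts or granulosa cells reached the filter, although Lcn2 of the neutrophil list averaged 1.88 FPKM in Dif-FGSC and 0.0143 FPKM in FGSC, and Nkg7 of the T and NK cell list 1.15 FPKM in Dif-FGSC and 0.263 FPKM in FGSC. Among dendritic cell markers Cd74 rose to 2.55 ± 0.337 FPKM in Dif-FGSC against 0.727 ± 0.213 FPKM in FGSC, and Zbtb46 was called higher with a call lost under 10 of 14 alternatives. Among erythroid and megakaryocyte markers Itga2b fell to 47.1 ± 1.06 FPKM in Dif-FGSC against 53.0 ± 2.09 FPKM in FGSC, and Pf4 was called lower with a call lost under 5 of 14 alternatives. The part of transcripts of these other cell types in the members' differences was not tested.

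**Figure D4:**
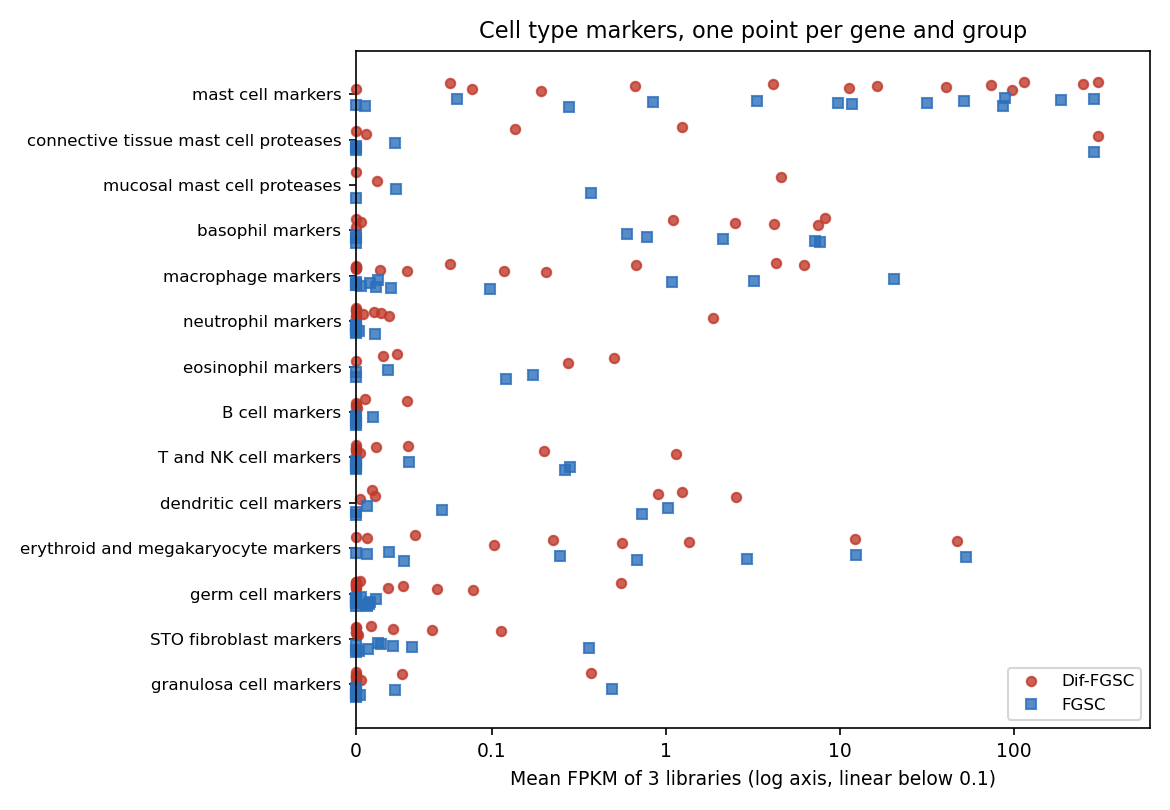
Mean FPKM of 3 libraries (x axis, logarithmic above 0.1 and linear below) for each gene of 14 marker lists, with Dif-FGSC as red circles above FGSC as blue squares in each row. Several mast cell markers lie above 10 FPKM, Itga2b and Epor lead the erythroid and megakaryocyte list, and most germ cell, fibroblast and granulosa cell markers lie below 0.1 FPKM.

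In the RefSeq gene order of GRCm38.p6, Fcer1g, Fcgr2b, Fcgr3 and Fcer1a lie on chromosome 1, Cd200r1 on 16, Ms4a2 on 19 and Mrgprb2 on 7. Tomm40l, near Fcer1g, fell by 0.13 ± 0.039 (SE) on the log2 scale, where Fcer1g was higher in Dif-FGSC, but its call was lost without Dif-FGSC replicate 2, Dif-FGSC replicate 3, FGSC replicate 1 or FGSC replicate 3. Between Fcgr2b and Fcgr3 lies Fcgr4, which was below the filter. Nepro, near Cd200r1, had a log2 difference of 0.30 ± 0.037 (SE), and Gtpbp8, next to it, was not called (limma adjusted p = 0.208). All 4 genes around Fcer1a were at 0 in every library, as were Mrgprb1, Mrgprx2 and Mrgprb3 beside Mrgprb2.

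For each member above the filter, the 3 tested genes with the highest Pearson correlation of log2(FPKM + 1) over the 6 libraries were listed. These libraries form 2 groups, so a high correlation mostly restates a difference between them. Nfs1, Bsg and Mrpl55 followed Cd200r1 most closely (r = 0.9995, 0.999 and 0.999 over 6 libraries), but with smaller log2 differences of -0.69, -0.25 and -0.31. Sbds, Samd9l and Casp8ap2 were closest to Fcgr3, Dnase2a, Med21 and Eif3m to Fcgr2b, and Rab3gap2, Mgea5 and Tmem38b to Fcer1g, all with r between 0.996 and 0.999. Samd9l was also near Fcgr3 in the size of its log2 difference (-0.98), with 1.29 ± 0.0592 FPKM in Dif-FGSC and 3.54 ± 0.636 FPKM in FGSC (SD, n = 3 each).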

How the data were processed

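RNA of 6 cell samples was sequenced as stranded poly(A) libraries, per the labels' protocols, and the authors deposited 1 table of FPKM values with a row per gene symbol. HISAT2 4.8.2, Cufflinks 2.2.1 and the build mm9 are named in the submitters' processing notes without their roles. The sources used here give neither the annotation nor the strand setting. Columns prefixed con were read as FGSC and those prefixed dif as Dif-FGSC, and every direction rests on that reading. Of 24674 rows, 24672 symbols remained after the higher of 2 duplicated symbols was kept, and 1 stray value beyond the last named column was not read.

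The 9162 genes with a mean of at least 1 FPKM were fitted as log2(FPKM + 1) with limma (version 3.58.1, R 4.3.3), using moderated variances with a trend on level and Benjamini-Hochberg adjustment over all 9162, and the code was tested on simulated data. The exact permutation test of 3 libraries against 3 cannot give a two-sided p below 0.1. For depth, low values of 3925 single-transcript genes were read as multiples of 1 fragment: at the depth chosen for a library, 76.9% to 79.1% of them came within 0.1 of a whole number. The share is partly built in, because the depth was chosen to raise it. Fragment numbers use the longest GENCODE transcript and are approximate.

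The members and gene lists were chosen with earlier results of these data known. Named genes are all members, up to 4 called genes per list with the largest log2 differences and groups that do not overlap, the up to 3 highest genes per list, the 3 genes most like each member and the 2 neighbours on each side. Genes named outside this rule (Cd200, Cd200r3, Cd84, Csf1r, Dazl, Dok1, Hcst, Hdc, Lyn, Milr1, Pecam1, Pik3cd, Prss34, Rasgrp4, Rpl30, Rps27, Syk and Tpsb2) were chosen after their values were seen. Not every gene that the rule names is reported here, and protein sequences were not used.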

Additional observations from a re-analysis of the deposited data

How the results depend on the processing

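Under 14 alternative fits none of the 4 members that were fitted (Fcer1g, Fcgr2b, Fcgr3 and Cd200r1) changed direction. The log2 difference of Cd200r1 moved to -2.37 with a pseudocount of 0.1 FPKM and that of Fcgr2b to -0.54 after quantile normalization. With each library left out in turn, Cd200r1 ranged from -2.19 to -1.99, Fcgr3 from -0.96 to -0.81, Fcgr2b from -0.48 to -0.42 and Fcer1g from 0.21 to 0.32. Values multiplied by the number of RefSeq transcripts, an alternative chosen after seeing the data, put Fcgr2b at 41.4 FPKM in Dif-FGSC and 57.7 in FGSC, Fcgr3 at 27.0 FPKM in Dif-FGSC and 52.6 in FGSC, and Ms4a2 at 0.239 FPKM in Dif-FGSC and 0.532 in FGSC, with mean ratios of Fcer1g over Fcgr3 of 2.77 in Dif-FGSC and 1.19 in FGSC. GATA in place of GATAA was found in the promoters of 6 members against 3. Those 6 are all the members with a window, and 58.3% of 27025 promoters held GATA. Scaling moved the balance of all called genes, which came to 3030 higher and 2990 lower by median-ratio scaling, and to 2789 higher and 3185 lower by quantile normalization, against 3343 and 2622 as reported. With the replicate number as a block 3241 genes were higher and 2557 lower. Same-numbered libraries correlated in their deviations from the group means by 0.131, 0.0123 and 0.173, so the numbers were not taken to pair the samples. Of 47 tested genes, those that the lists' rule names and the others whose call the text gives, 33 kept their side of the threshold throughout. Quantile normalization added calls for Cpa3, Il6, Dok1, Cd200r4 and Gtpbp8 (adjusted p = 0.00238, 0.0318, 0.0379, 0.0407 and 0.0191), each the lowest over that gene's alternatives, whose highest were 0.796, 0.967, 0.906, 0.857 and 0.464. The causes were not tested. Depth limits Fcer1a and Mrgprb2, which lie under the floor of 3 fragments, and leaves Ms4a2 at an estimated 8.1 to 16 fragments in Dif-FGSC and 14 to 45 in FGSC.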

Other observations

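Some receptor genes below the filter had groups that did not overlap and were not tested. Cd84, a receptor of the SLAM family, was listed at a mean of 0.288 FPKM in Dif-FGSC and of 1.44 FPKM in FGSC. Siglecf, an inhibitory receptor best known from eosinophils, stood higher in Dif-FGSC, at 0.506 ± 0.0415 FPKM in Dif-FGSC and 0.172 ± 0.077 FPKM in FGSC (SD, n = 3 each). Pecam1, an inhibitory adhesion receptor, was also higher, at 0.403 ± 0.0575 FPKM in Dif-FGSC and 0.0874 ± 0.00362 FPKM in FGSC. The groups of Mrgpra9 did not overlap either, at 0.631, 1.07 and 0.527 FPKM in Dif-FGSC and at 0.383, 0.304 and 0.218 FPKM in FGSC. These genes were named after their values were seen.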
